A study of Mus musculus with 12 samples.

Results

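The 10 genes described here, Gpnmb, Trem2, Spp1, Cd9, Cd63, Lpl, Fabp5, Ctsd, Lgals3 and Atp6v0d2, are expressed by macrophages that gather along liver scars. They are 10 of the 24296 gene symbols in the table. Gpnmb was selected on its rise in FPKM from control to model, and the other 9 were added because they are expressed with it in such macrophages, so the comparison of model with control is part of how the set was chosen. Male C57/BL6N mice made up 4 groups with 3 livers each. The model, silibinin and phloridzin groups were injected intraperitoneally for 8 weeks with 5 mL/kg of CCl4 in olive oil, 2 injections per week. From week 5 the silibinin group also received silibinin at about 27 mg/kg and the phloridzin group phloridzin at 40 mg/kg. The control group received no CCl4 and was killed at the same 8 weeks. The age of the mice is not given in the sources used here, and neither is whether the control group received olive oil alone.

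Scar-associated macrophages were first described in cirrhotic human liver and have relatives in mouse liver, in obese fat tissue and in the aging brain. They derive largely from blood monocytes, carry TREM2 and CD9 on their surface and take up lipid and cell debris. GPNMB is a membrane glycoprotein of lysosomes and the cell surface that is induced by lysosomal load through the factors MITF and TFE3. Silibinin is a flavonolignan of milk thistle that is used against liver disease, and phloridzin is a glucoside of apple trees that blocks sodium-glucose transport.

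Each liver gave 1 library. The median depth was 108.4 M fragments in the control group, 100.1 M in the model group, 110.1 M in the silibinin group and 102.1 M in the phloridzin group, and the shallowest library was a model library with 83.7 M. Values are FPKM summed over the transcripts of a gene, and all 10 genes passed the filter on low values. The replicates are labelled as separate samples, so the p-values below measure the spread between livers. Because the RNA came from whole liver, fewer macrophages and less RNA per macrophage cannot be told apart. Many of the genes are also expressed by other cells of the liver, such as Ctsd in hepatocytes and Spp1 in bile duct cells. Differences are log2 of FPKM + 1, which understates the change of genes near 0.

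The livers were checked with markers of the tissue. Alb and Hnf4a were present in all 12 livers. Ttr was low in phloridzin 1 at 10.3 FPKM and in control 1 at 39.8 FPKM, and Tat stood at 69.2 FPKM in phloridzin 1. Relative to the control mean, the median log2 level of 6 hepatocyte markers was -1.37 in phloridzin 1 and between -0.07 and 0.76 in the other livers with CCl4. Phloridzin 1 thus stands apart in this median, and its part in the results was not tested beyond leaving it out. Not all 6 markers were low there. Alb (18900 FPKM) and Apoa1 (1030 FPKM) lay above the control means of 12700 and 726 FPKM. Cyp2e1, at 480 FPKM, was near the other phloridzin livers (357 and 488 FPKM), and Hnf4a, at 88.7 FPKM, was the lowest of the 12 livers. Apoa1 was lowest in phloridzin 3 (196 FPKM) and control 3 (202 FPKM). Of these 6 markers, 1 was called in model against control, which is Cyp2e1 (log2 fold change -2.35, adjusted p 0.0014, limma, and not called with its most abundant transcript alone). Cyp2e1 also fell in phloridzin against control (-2.56, adjusted p 0.0063), again not with its most abundant transcript alone. Limma called 0 of the 6 in the comparisons of each drug with model, where the unadjusted p was under 0.05 for 1 with silibinin and 0 with phloridzin, and voom called 0 in each. In silibinin against control 0 were called as well, with 1 at an unadjusted p under 0.05 and 0 by voom, and leaving out control 2 gave 1.

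The promoters of 7 of the 10 genes were found in the set of 32851 promoters used here, drawn from the RefSeq annotation of GRCm38.p6. Lpl, Fabp5 and Atp6v0d2 had no entry in that set, which does not show that the annotation lacks them. Below are 250 bases before the start and 30 from it for 3 genes. Those of Gpnmb (chr6:49036268-49036547) and Trem2 (chr17:48346151-48346430) lie on the plus strand and that of Ctsd (chr7:142387798-142388077) on the minus strand. Capitals mark matches, on either strand, to CACGTG and TCATGTG (sites of MITF and TFEB), TGANTCA (AP-1) and GAGGAAG (PU.1).

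Gpnmb: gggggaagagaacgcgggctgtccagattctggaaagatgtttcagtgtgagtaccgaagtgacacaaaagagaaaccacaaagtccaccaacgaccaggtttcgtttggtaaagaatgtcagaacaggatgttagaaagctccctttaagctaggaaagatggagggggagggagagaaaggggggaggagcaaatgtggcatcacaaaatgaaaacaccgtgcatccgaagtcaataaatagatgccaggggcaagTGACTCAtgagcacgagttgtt

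Trem2: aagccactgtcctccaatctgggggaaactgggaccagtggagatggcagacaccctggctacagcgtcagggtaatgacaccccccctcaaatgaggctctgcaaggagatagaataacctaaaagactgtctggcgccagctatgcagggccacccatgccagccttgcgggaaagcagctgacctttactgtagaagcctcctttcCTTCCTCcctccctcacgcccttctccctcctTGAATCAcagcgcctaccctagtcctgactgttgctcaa

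Ctsd: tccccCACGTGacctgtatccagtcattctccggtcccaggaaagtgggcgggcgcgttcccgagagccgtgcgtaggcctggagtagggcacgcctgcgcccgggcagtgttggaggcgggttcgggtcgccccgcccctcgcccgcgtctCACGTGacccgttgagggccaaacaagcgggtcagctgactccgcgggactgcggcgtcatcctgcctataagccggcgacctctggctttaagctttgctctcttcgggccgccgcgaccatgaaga

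Gpnmb had a TGANTCA match at base 9 after the start, and Trem2 had one at base -9. GAGGAAG was found on the minus strand in Trem2 at -41 and in Cd63 at -60, and on the plus strand in Spp1 at -113. Another promoter of Spp1, at the start of its most abundant transcript (53.5% of Spp1), had no match. The Cd63 promoter lies at the start of a transcript with 1.6% of Cd63 and not of its main transcript (95.8%). Ctsd had CACGTG at -245 and at -98, and Cd9 and Lgals3 had no match. The Ctsd start used here lies inside the main transcript (89.4% of Ctsd), near the start of a transcript with 8.6%. The match at -98 lies inside that main transcript too. For Trem2 the start is that of a transcript with 27.2% of Trem2 and not of its most abundant one (57.3%). The main transcript of Gpnmb (89.8%) starts past the end of the bases printed. Over 300 bases on both strands, TGANTCA is found in 7.81% of 32851 promoters, GAGGAAG in 13.6%, CACGTG in 7.15% and TCATGTG in 3.77%. A match describes the sequence alone, and binding was not measured.

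**Figure D1:**
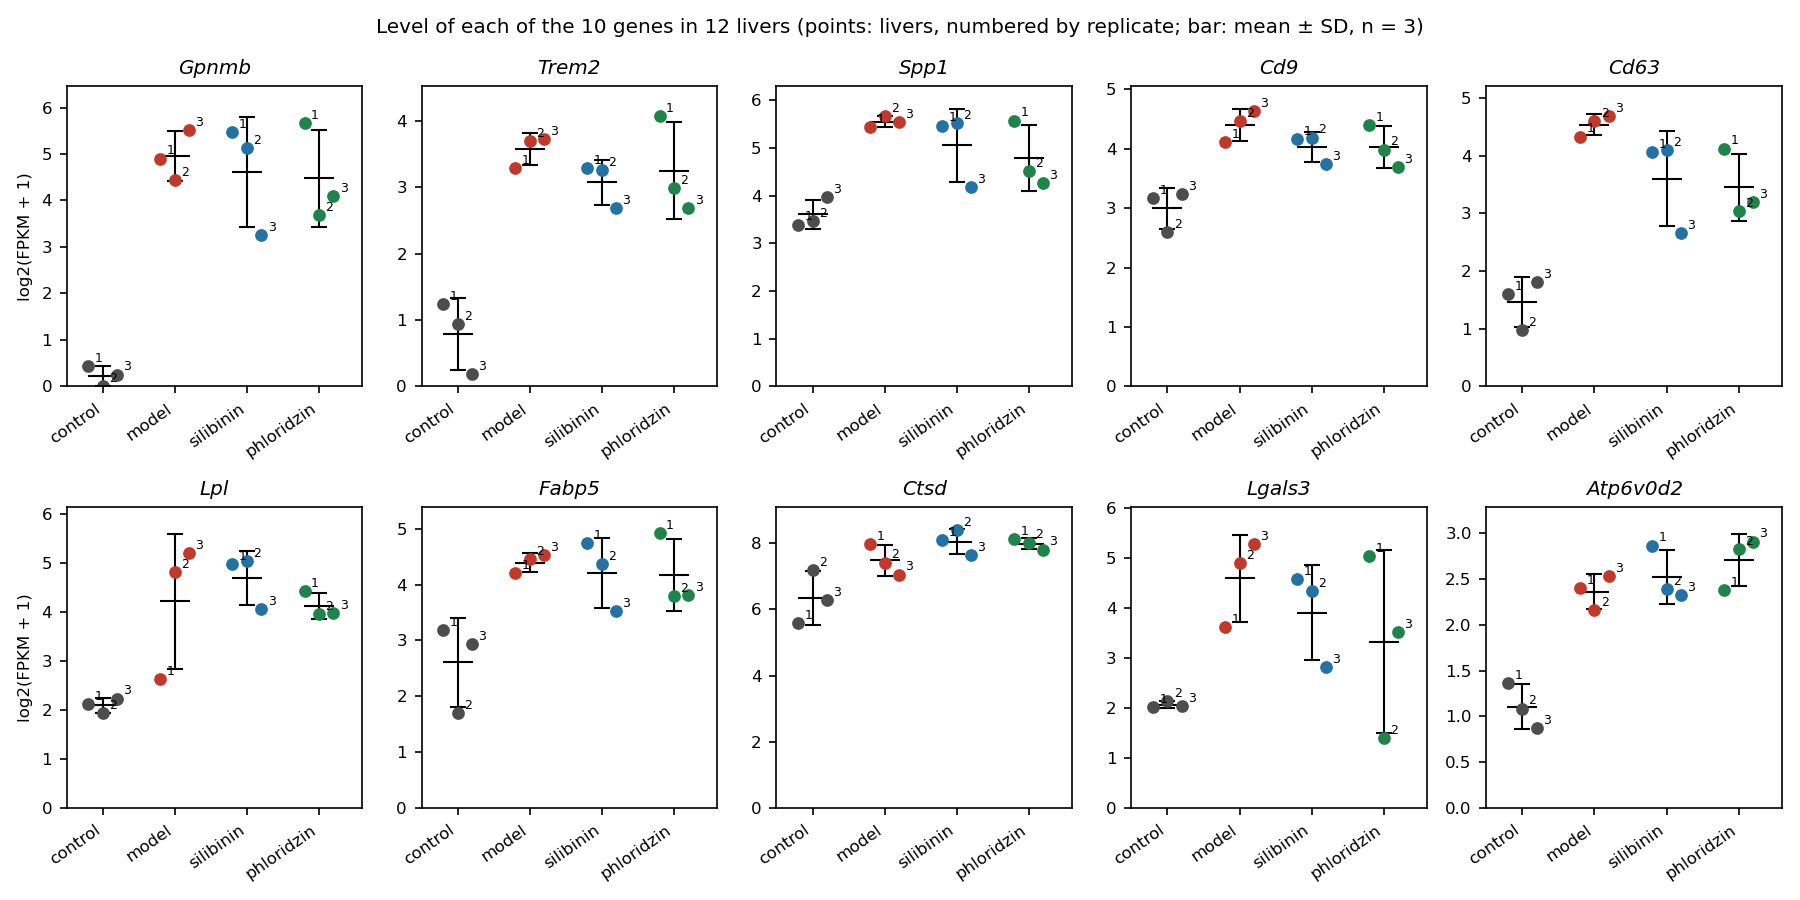
Level of each of the 10 genes in log2(FPKM + 1) on the vertical axis against group, with points for livers numbered by replicate and bars for the mean and SD of 3 livers. Gpnmb lies at 0.347 FPKM or lower in the control livers and at 8.59 FPKM or higher in all others.

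The first 4 genes encode membrane proteins. Gpnmb stood at 0.347, 0.0 and 0.193 FPKM in control livers 1, 2 and 3, and at 28.9, 20.8 and 44.7 FPKM in the model livers. In the silibinin livers it stood at 43.4, 33.8 and 8.59 FPKM, and in the phloridzin livers at 49.6, 11.8 and 16.1 FPKM. All 9 livers with CCl4 lay above the control livers, and the 3 groups with CCl4 overlapped, with the lowest value in silibinin 3 and the highest in phloridzin 1. The value of control 1 rests on 92 fragments, and the 0 of control 2 leaves room for up to 0.0277 FPKM (3 fragments of a transcript of 1 kb). Group means were 31.5 ± 12.2 in model, 28.6 ± 18.0 in silibinin, 25.8 ± 20.7 in phloridzin and 0.18 ± 0.174 FPKM in control (SD, n = 3), and neighbours among the first 3 differ by less than their SD.

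Trem2, a lipid receptor that signals through Tyrobp, stood at 1.36, 0.916 and 0.133 FPKM in the control livers and at 8.78, 11.9 and 12.2 FPKM in the model livers. Its values were 8.72, 8.52 and 5.43 FPKM with silibinin, all under the 8.78 FPKM of the lowest model liver, and 15.8, 6.9 and 5.42 FPKM with phloridzin, on both sides of the model livers. The order of the means was model (11 ± 1.9), phloridzin (9.37 ± 5.61), silibinin (7.56 ± 1.84) and control (0.803 ± 0.621 FPKM, SD, n = 3). Phloridzin differed from its neighbours by less than its SD.

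Cd63, a tetraspanin of late endosomes and exosomes, was at 2.04, 0.975 and 2.51 FPKM in the control livers and at 19.1, 23.3 and 24.7 FPKM in the model livers. With silibinin it was at 15.7, 16.1 and 5.28 FPKM and with phloridzin at 16.4, 7.25 and 8.15 FPKM. All 6 livers with a drug lay below the lowest model liver and above the highest control liver, and the drug groups overlapped each other. Means were 22.4 ± 2.92 in model, 12.4 ± 6.13 in silibinin, 10.6 ± 5.02 in phloridzin and 1.84 ± 0.787 FPKM in control (SD, n = 3). Cd9, a tetraspanin of the cell surface, changed less, with 5.06 to 8.39 FPKM in control, 16.2 to 23.7 in model, 12.3 to 17.2 in silibinin and 11.9 to 20 in phloridzin. The 3 groups with CCl4 overlapped for Cd9 and lay above the control livers.

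Spp1 encodes osteopontin, a secreted ligand of integrins and Cd44, which bile duct cells also make. It stood at 9.5, 10 and 14.6 FPKM in the control livers and at 42.3, 49.9 and 45.5 FPKM in the model livers. With silibinin it was at 43.3, 44.9 and 17.1 FPKM, and with phloridzin at 46.7, 22.0 and 18.3 FPKM. Silibinin 3, phloridzin 2 and phloridzin 3 lay between the model and control livers, and the other 3 livers with a drug lay within the model group. Means were 45.9 ± 3.83 in model, 35.1 ± 15.6 in silibinin, 29.0 ± 15.4 in phloridzin and 11.4 ± 2.78 FPKM in control (SD, n = 3), so the drug groups differ from each other by less than their SD.

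Lgals3 encodes galectin-3, a secreted lectin that also gathers on damaged lysosomes. Its control livers were at 3.05, 3.4 and 3.11 FPKM and its model livers at 11.2, 28.8 and 37.6 FPKM. The silibinin livers were at 22.9, 19.1 and 6.01 FPKM and the phloridzin livers at 31.9, 1.64 and 10.5 FPKM. Phloridzin 2 lay below every control liver, and the highest phloridzin liver was 19.4 times the lowest, the widest such ratio of the 10 genes within a group where no liver is at 0, which leaves out Gpnmb in control. Means were 25.9 ± 13.4 in model, 16 ± 8.88 in silibinin, 14.7 ± 15.5 in phloridzin and 3.18 ± 0.189 FPKM in control (SD, n = 3), and neighbours among the groups with CCl4 differ by less than the larger SD of the pair.

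Lpl encodes lipoprotein lipase, which releases fatty acids from lipoproteins. It stood at 3.33, 2.8 and 3.69 FPKM in the control livers and at 5.18, 27.2 and 35.5 FPKM in the model livers. With silibinin it was at 30.4, 31.7 and 15.6 FPKM and with phloridzin at 20.4, 14.4 and 14.7 FPKM. Model 1 was the lowest of the livers with CCl4, with model 3 at 6.84 times its level, and the 3 groups with CCl4 overlapped. Neighbours among those groups differ by less than the SD of the model group. The order of the means was silibinin (25.9 ± 8.97), model (22.6 ± 15.7), phloridzin (16.5 ± 3.36) and control (3.27 ± 0.451 FPKM, SD, n = 3). Fabp5, a carrier of fatty acids inside the cell, was at 2.25 to 8.12 FPKM in control, 17.4 to 22.1 in model, 10.5 to 25.7 in silibinin and 12.9 to 29.2 in phloridzin. Its means in the groups with CCl4 were 20.1, 18.6 and 18.4 FPKM in that order, closer than their SDs.

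Ctsd encodes cathepsin D, an aspartic protease of lysosomes, and was the most abundant of the 10 genes. It stood at 46.8, 145 and 76.6 FPKM in the control livers and at 251, 170 and 132 FPKM in the model livers. The silibinin livers were at 273, 336 and 200 FPKM and the phloridzin livers at 281, 259 and 223 FPKM. Control 2 lay above model 3, so model and control overlapped, whereas all livers with a drug lay above all control livers. Means were 270 ± 68.0 in silibinin, 254 ± 29.4 in phloridzin, 184 ± 61.0 in model and 89.4 ± 50.1 FPKM in control (SD, n = 3), and the drug groups differ by less than their SD. Atp6v0d2, a subunit of the lysosomal proton pump that is found in macrophages and osteoclasts, was at 0.827 to 1.57 FPKM in control, 3.46 to 4.78 in model, 4.02 to 6.29 in silibinin and 4.21 to 6.51 in phloridzin. Its groups with CCl4 overlapped and lay above the control livers.

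In model against control, which chose the set, the values are a description and no test is given. Log2 fold changes were 4.73 for Gpnmb, 3.07 for Cd63, 2.78 for Trem2, 2.53 for Lgals3, 2.12 for Lpl, 1.94 for Spp1, 1.78 for Fabp5, 1.4 for Cd9, 1.26 for Atp6v0d2 and 1.13 for Ctsd. The groups did not overlap for 9 of the 10, against 45.1% of the 13158 tested genes. The median of the 10 was 2.03 and that of all tested genes 0.34. FPKM holds no correction for composition, and the median gene was also off 0 in silibinin against model (-0.15), phloridzin against model (-0.11), silibinin against control (0.16) and phloridzin against control (0.18). Differences should be read relative to these shifts. After scaling by median ratios the changes were 4.47 for Gpnmb, 2.71 for Cd63, 2.49 for Trem2, 0.99 for Cd9, 0.96 for Atp6v0d2 and 0.69 for Ctsd.

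Scaling also moved the split of all called genes. In model against control 1240 genes rose and 142 fell, and with scaling 529 rose and 453 fell. In silibinin against model 98 rose and 428 fell, and with scaling 189 and 241. In phloridzin against model 79 rose and 384 fell, and with scaling 140 and 240. With silibinin against control 229 rose and 32 fell, and with scaling 150 and 53, and in phloridzin against control 360 rose and 38 fell, and with scaling 187 and 62.

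The comparison of silibinin with model shares the model livers with the comparison that chose the set. Of the 10 genes 0 were called by limma, where 3.25% of all genes were called lower, with 1 at an unadjusted p under 0.05 (Cd63), against 29.2% of all genes, and 0 by voom. Cd63 had a log2 fold change of -0.94 (95% interval -1.83 to -0.04, adjusted p 0.15) and Trem2 of -0.50 (-1.31 to 0.32, adjusted p 0.41). These 2 were the genes whose groups did not overlap, where 27.8% of all genes were lower without overlap. The change of Gpnmb was -0.33 (-1.67 to 1.00, adjusted p 0.76), that of Lgals3 -0.69 (-2.46 to 1.08) and that of Spp1 -0.49 (-1.36 to 0.38). Cd9 was at -0.37 (-0.89 to 0.15) and Fabp5 at -0.18 (-1.15 to 0.79). Ctsd, Lpl and Atp6v0d2 were higher, with 0.57 (-0.27 to 1.40), 0.47 (-0.74 to 1.68) and 0.16 (-0.29 to 0.62). The median of the 10 genes was -0.35, and with scaling -0.15. With scaling Gpnmb was at -0.13, Trem2 at -0.3, Spp1 at -0.28, Cd9 at -0.17, Cd63 at -0.73 and Lgals3 at -0.49. Ctsd was then at 0.78, Lpl at 0.67 and Atp6v0d2 at 0.33.

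The comparison of phloridzin with model shares the model livers too. Of the 10 genes 0 were called by limma, where 2.92% of all genes were called lower, with 1 at an unadjusted p under 0.05 (Cd63), against 27.8% of all genes, and 0 by voom. Cd63 had a log2 fold change of -1.09 (95% interval -1.98 to -0.19, adjusted p 0.11), and without phloridzin 1 it was called, at -1.42 with an adjusted p of 0.045. It was the only 1 of the 10 with groups that did not overlap, where 22.4% of all genes were lower without overlap. Gpnmb was at -0.48 (-1.82 to 0.86, adjusted p 0.66), Lgals3 at -1.27 (-3.05 to 0.50, adjusted p 0.34), Spp1 at -0.76 (-1.63 to 0.11) and Trem2 at -0.32 (-1.14 to 0.49). Ctsd and Atp6v0d2 were higher, with 0.51 (-0.32 to 1.34) and 0.34 (-0.11 to 0.80). The median of the 10 genes was -0.35, and with scaling -0.18. Lpl was at -0.10 (-1.31 to 1.11), Fabp5 at -0.22 (-1.18 to 0.75) and Cd9 at -0.38 (-0.90 to 0.15), and all intervals but those of Cd9 and Atp6v0d2 reach past a change of 1. With scaling Gpnmb was at -0.3, Trem2 at -0.16, Spp1 at -0.58, Cd9 at -0.2, Cd63 at -0.91 and Fabp5 at -0.04. Lgals3 was then at -1.1, Ctsd at 0.69 and Atp6v0d2 at 0.49.

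These changes depended on single livers. In silibinin against model, Cd63 ran from -1.18 (without silibinin 2) to -0.46 (without silibinin 3), Lgals3 from -1.18 (without model 1) to -0.14 (without silibinin 3), Spp1 from -0.73 (without silibinin 2) to -0.05 (without silibinin 3) and Gpnmb from -0.76 (without silibinin 1) to 0.34 (without silibinin 3). Trem2 ran from -0.63 (without model 1) to -0.30 (without silibinin 3) and Cd9 from -0.52 (without model 1) to -0.22 (without silibinin 3). With phloridzin against model, Cd63 ran from -1.42 to -0.88 (without phloridzin 1 and 2), Lgals3 from -2.13 to -0.31 and Gpnmb from -1.07 to -0.07 (without the same livers). Spp1 ran from -1.15 to -0.50 (without phloridzin 1 and 3), Trem2 from -0.74 to -0.04 and Cd9 from -0.56 to -0.21 (without the same livers). Ctsd stayed higher with each drug, at 0.35 to 0.81 with silibinin and 0.29 to 0.75 with phloridzin (each without model 3 and model 1).

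**Figure D2:**
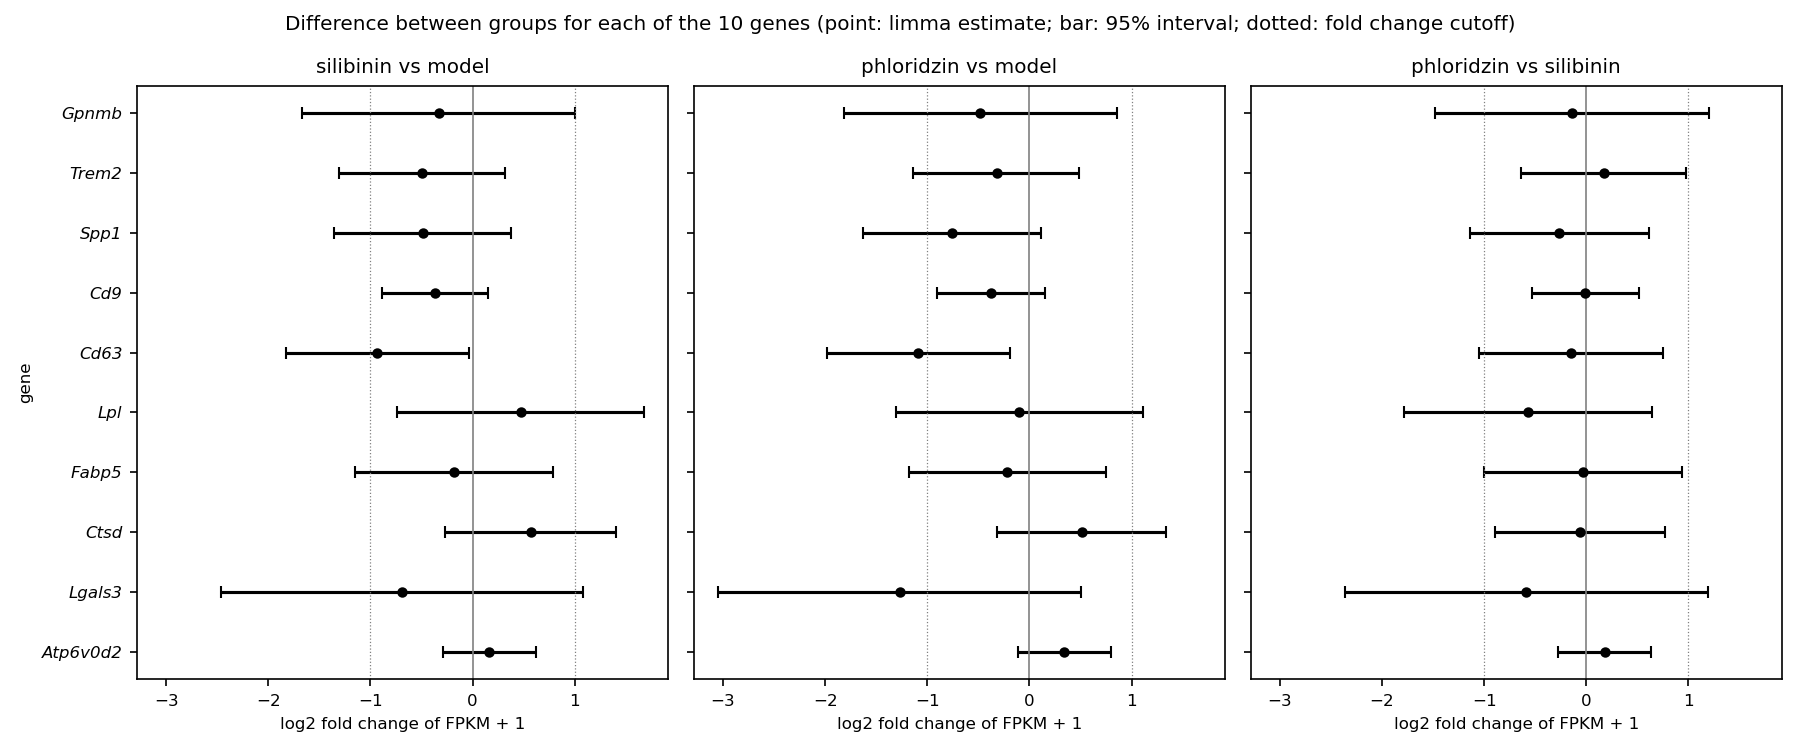
Log2 fold change of each of the 10 genes on the horizontal axis for silibinin against model, phloridzin against model and phloridzin against silibinin, with points for the estimates of limma and bars for 95% intervals. Without adjustment and without scaling, Cd63 is the gene whose interval leaves out 0 with each drug (-1.83 to -0.04 and -1.98 to -0.19). Its adjusted p of limma was 0.15 with silibinin and 0.11 with phloridzin, and with scaling its changes were -0.73 and -0.91.

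Phloridzin against silibinin shares no liver with the contrast behind the choice. Limma called 0 of the 10 genes, where 0.0228% of all genes were called in either direction, with 0 at an unadjusted p under 0.05, against 3.75% of all genes, and 0 by voom. The groups overlapped for all 10. Changes ran from -0.59 for Lgals3 (95% interval -2.36 to 1.19) and -0.57 for Lpl (-1.78 to 0.64) to 0.18 for Atp6v0d2 (-0.28 to 0.63). Gpnmb was at -0.14 (-1.48 to 1.20), Trem2 at 0.17 (-0.64 to 0.98) and Cd63 at -0.15 (-1.05 to 0.75). Spp1 was at -0.27 (-1.14 to 0.61), Fabp5 at -0.03 (-1.0 to 0.94) and Ctsd at -0.06 (-0.89 to 0.77). The missed threshold does not show that the drugs act alike, since for Gpnmb, Spp1, Cd63, Lpl and Lgals3 the intervals hold changes of more than 1. Intervals were narrowest for Atp6v0d2 and for Cd9, at -0.01 (-0.53 to 0.52).

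For silibinin against control, the control livers are those that chose the set, so the values are again a description with no test. Log2 fold changes were 4.39 for Gpnmb, 2.59 for Lpl, 2.29 for Trem2, 2.14 for Cd63, 1.84 for Lgals3, 1.7 for Ctsd, 1.6 for Fabp5, 1.45 for Spp1, 1.42 for Atp6v0d2 and 1.03 for Cd9. Past the thresholds were 7 of the 10, and 1.74% of all genes, from which nothing is read. The 7 became 3 without control 1, 4 without control 2, 4 without control 3, 3 without silibinin 1, 3 without silibinin 2 and 9 without silibinin 3, and 6 with scaling. Gpnmb, Trem2 and Atp6v0d2 stayed past them without any 1 liver, but Trem2 did not with its most abundant transcript alone.

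In phloridzin against control the same holds. Log2 fold changes were 4.25 for Gpnmb, 2.46 for Trem2, 2.02 for Lpl, 1.99 for Cd63, 1.64 for Ctsd, 1.6 for Atp6v0d2, 1.57 for Fabp5, 1.26 for Lgals3, 1.18 for Spp1 and 1.02 for Cd9. Past the thresholds were 7 of the 10, and 2.74% of all genes. The 7 became 3 without control 1, 4 without control 2, 5 without control 3, 3 without phloridzin 1, 4 without phloridzin 2 and 6 without phloridzin 3, and 4 with scaling. Gpnmb, Trem2 and Atp6v0d2 again stayed past them without any 1 liver, but Trem2 did not with only the 2 compared groups in the fit or with its most abundant transcript alone.

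Livers within a group differed. Silibinin 3 was the lowest of its group for 10 of the 10 genes, where 53.4% of all genes were lowest in that liver. Phloridzin 1 was the highest of its group for 9 of the 10, where 55.7% of all genes were highest there. The median of the 10 genes above the control mean was 1.61, 2.4 and 2.44 in the model livers, 2.31, 2.16 and 1.2 in the silibinin livers, and 2.32, 1.63 and 1.59 in the phloridzin livers. Below the lowest model liver were 2, 2 and 7 of the 10 genes in silibinin 1, 2 and 3, and 1, 7 and 7 in phloridzin 1, 2 and 3. Of all tested genes 44.1%, 39.0% and 52.7% were below it in the silibinin livers and 33.6%, 46.9% and 48.7% in the phloridzin livers. Above the highest control liver were all 10 in each liver with a drug except phloridzin 2, with 9, where 39.4% to 58.7% of all tested genes were above it.

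Some genes changed transcripts between livers, although 89.8% of Gpnmb came from ENSMUST00000031840 and 98.6% of Cd9, 95.8% of Cd63, 97.2% of Fabp5 and 97.9% of Atp6v0d2 from their main transcript. For Lpl the coding ENSMUST00000015712 stood at 3.17, 0.781 and 32.0 FPKM in the model livers, 28.5, 5.84 and 14.8 with silibinin and 19.2, 3.25 and 13.6 with phloridzin. ENSMUST00000168401 of Lpl, annotated for nonsense-mediated decay, reached 24.3 FPKM in model 2, 23.4 in silibinin 2 and 10 in phloridzin 2 and was at 0.0526 or lower elsewhere. For Ctsd the main transcript, ENSMUST00000151120, was at 1.36 FPKM in control 1, where ENSMUST00000066401 held 44.6 FPKM. The same second transcript held 95.6 FPKM in phloridzin 1 and 66.0 in phloridzin 2. For Trem2, ENSMUST00000024791 held 9.87 FPKM in model 2, 4.5 in silibinin 3 and 5.67 in phloridzin 2, and ENSMUST00000113237 was the main transcript over the 12 livers. The main transcript of Lgals3, ENSMUST00000150290, was at 0.0 FPKM in silibinin 3, 0.478 in phloridzin 2 and 1.72 in phloridzin 3. Whether these shifts lie in the livers or in the assignment of fragments was not tested.

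**Figure D3:**
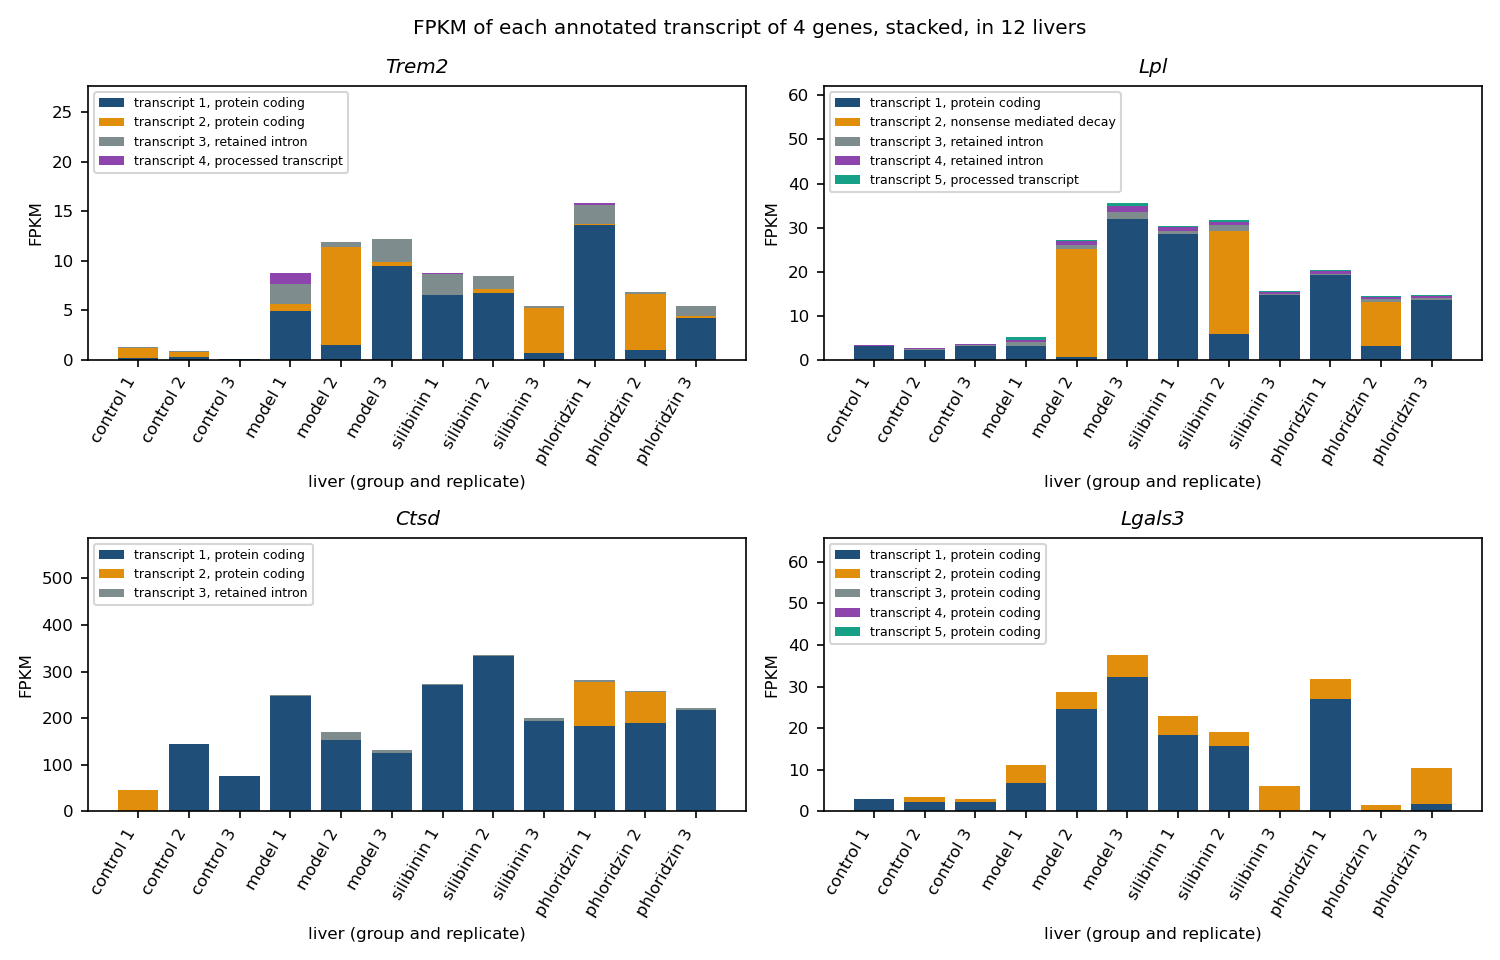
FPKM of each annotated transcript of Trem2, Lpl, Ctsd and Lgals3 on the vertical axis, stacked, with 1 bar for each of 12 livers. In Lpl the transcript annotated for nonsense-mediated decay holds 24.3 FPKM in model 2 and 23.4 in silibinin 2.

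Genes were ranked by how closely their pattern over the 12 livers follows that of Gpnmb, as the mean absolute difference of z-scores. The nearest of 11610 genes were Loxl1 (0.0755), Col1a1 (0.0778), Col3a1 (0.113), Ltbp2 (0.123) and Adamts2 (0.129). They were chosen after their values were seen. Col1a1 stood at 1.66, 1.04 and 1.48 FPKM in the control livers, 46.4, 37.0 and 62.1 in model, 50.9, 49.8 and 16.2 with silibinin and 85.1, 22.0 and 17.1 with phloridzin. Of the other 9 genes Trem2 was the nearest to Gpnmb (0.252, rank 89), then Cd63 (0.272, rank 138), Spp1 (0.3, rank 208) and Fabp5 (0.304, rank 221). The most distant were Lgals3 (0.467, rank 997) and Ctsd (0.496, rank 1197), against a median of 0.878 over all genes.

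The lists of other genes below stand beside these shares of all 13158 tested genes. Called higher were 9.42% in model, 1.74% in silibinin and 2.74% in phloridzin, each against control, and called lower were 3.25% and 2.92% in silibinin and phloridzin against model. At an unadjusted p under 0.05 were 45.8%, 21.5%, 24.6%, 29.2% and 27.8% in the same order.

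Another 36 genes of scar- and lipid-associated macrophages were tested. In model against control 15 of the 36 rose, led by Mmp12 (log2 fold change 3.68, adjusted p 0.00029), Clec7a (2.55, 0.0011) and Capg (2.45, 0.00025). Mmp12 stood at 0.0382, 0.0247 and 0.0346 FPKM in the control livers, 9.6, 12.8 and 14.8 in model, 5.89, 4.68 and 1.88 with silibinin and 9.42, 1.97 and 2.53 with phloridzin. Limma called 0 of the 36 in silibinin against model, with 9 at an unadjusted p under 0.05 and 2 by voom, and 2 without model 1, 1 without silibinin 1 and 1 without silibinin 2. In phloridzin against model it called 0, with 5 at an unadjusted p under 0.05 and 1 by voom, and 2 without phloridzin 1. Cd68, chosen after its values were seen, was at 0.0541 to 1.72 FPKM over the 12 livers.

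The same 36 genes were tested in the drug groups against control. Between silibinin and control 7 of the 36 rose, among them Mmp12 (2.23, adjusted p 0.021), Clec7a (1.89, 0.025) and Capg (1.68, 0.011). The count was 4 without control 1, 4 without silibinin 1 and 3 without silibinin 2. Mmp12 lost the call without control 1, 2 or 3 or silibinin 1 or 2, Clec7a without control 1 or 3 or silibinin 1 or 2, and Capg without silibinin 1 or 2. With phloridzin against control 13 of the 36 rose, among them Clec7a (2.37, adjusted p 0.0086), Mmp12 (2.21, 0.017) and Capg (1.84, 0.0065). That count was 7 without control 1, 8 without control 3, 7 without phloridzin 1 and 18 without phloridzin 3, and Mmp12 lost the call without control 1, 2 or 3. With median-ratio scaling 10 of the 36 rose in model, 6 in silibinin and 7 in phloridzin, each against control.

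**Figure D4:**
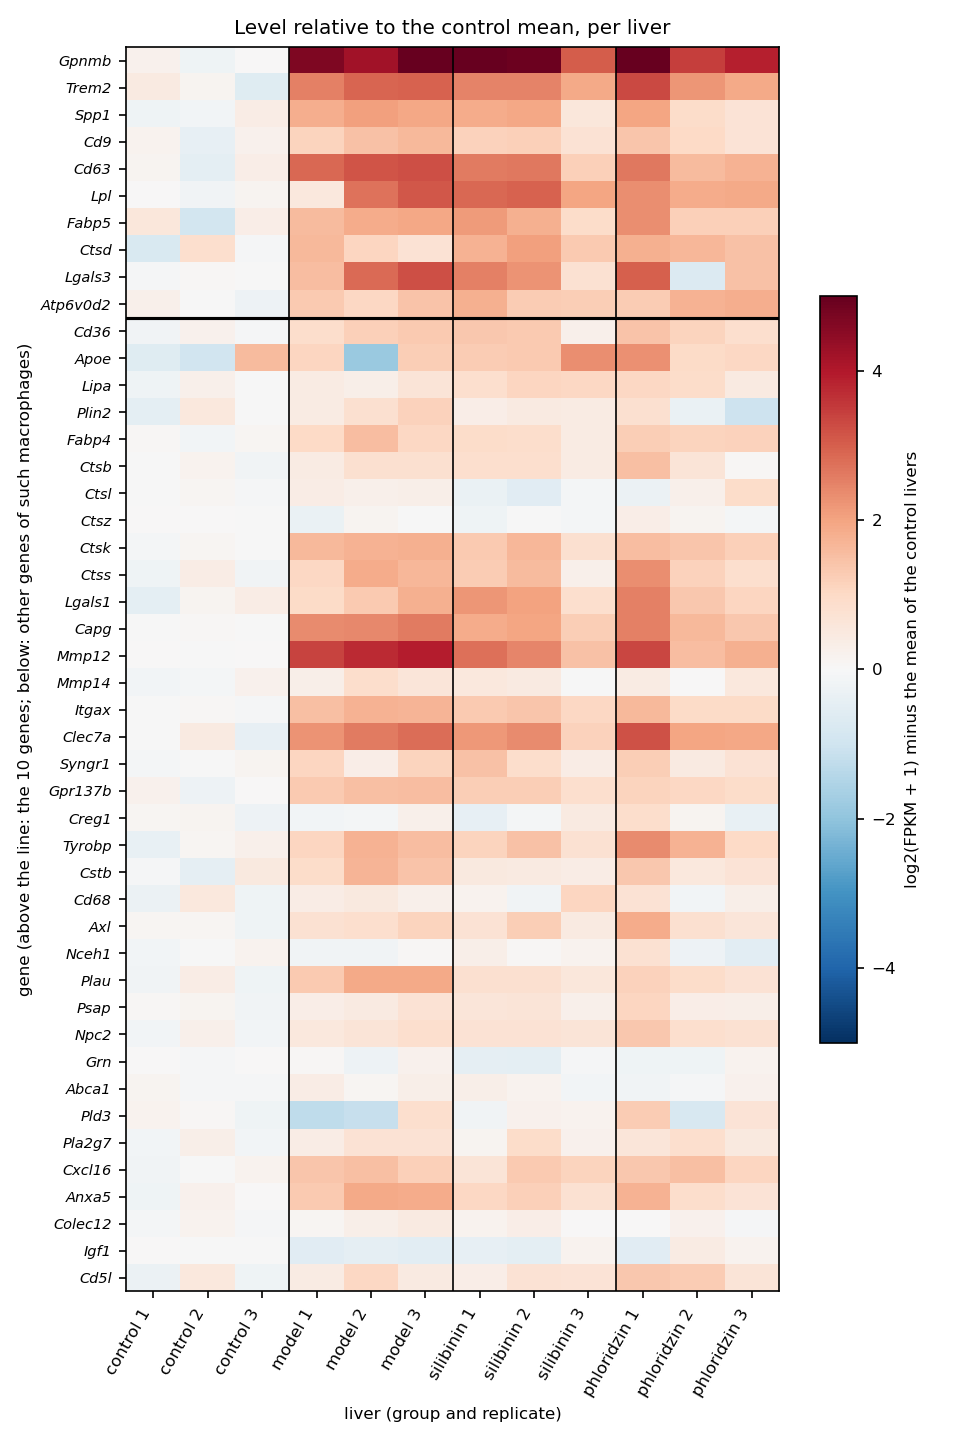
Colour gives log2(FPKM + 1) minus the mean of the control livers for the 10 genes (above the line) and 36 other genes of such macrophages (below), with 1 column for each of 12 livers. Mmp12 is at 9.6 FPKM or higher in the model livers and at 1.88 FPKM in silibinin 3.

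Trem2 signals through Tyrobp and Syk. Of 6 tested partners 4 rose in model against control, among them Syk (1.49, adjusted p 0.00044), Tyrobp (1.45, 0.0071) and Inpp5d (1.23, 0.0015). In silibinin against control 1 rose, Syk (1.13, adjusted p 0.013), with 0 without control 1, silibinin 1 or silibinin 2 and 2 without silibinin 3. For phloridzin against control 2 rose, Tyrobp (1.69, adjusted p 0.015) and Syk (1.07, 0.012), with 0 without control 1, 1 without phloridzin 1 or 2 and 3 without phloridzin 3. Tyrobp lost that call without control 1, and Syk without control 1 or phloridzin 1 or 2. With scaling 2 of the 6 rose in model, 0 in silibinin and 1 in phloridzin, each against control. Against model, limma called 0 with each drug, with 0 at an unadjusted p under 0.05 and 0 by voom.

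Osteopontin binds integrins and Cd44. Of 9 such receptors 4 rose in model against control, among them Cd44 (1.88, adjusted p 0.00017), Itga8 (1.68, 0.0004) and Itga4 (1.29, 0.019). Itga4 lost the call without control 1 or model 3. With silibinin against control 3 rose, Itga8 (1.73, adjusted p 0.0041), Itga4 (1.52, 0.04) and Cd44 (1.09, 0.016), with 1 without control 1, silibinin 1 or silibinin 2, and 2 without control 2, control 3 or silibinin 3. Between phloridzin and control the same 3 rose, Itga8 (1.77, adjusted p 0.0035), Itga4 (1.36, 0.046) and Cd44 (1.11, 0.012), with 1 without control 1 or phloridzin 1 and 2 without control 3 or phloridzin 2. Itga8 kept its call without any 1 liver in each, and Itga4 lost it with silibinin without any of the 6 and with phloridzin without any but phloridzin 3. Cd44 lost it without control 1, silibinin 1 or silibinin 2, and with phloridzin without control 1 or phloridzin 1. With scaling 3 of the 9 rose in model, 2 in silibinin and 1 in phloridzin, each against control. Against model, limma called 0 with each drug, with 2 at an unadjusted p under 0.05 and 0 by voom in each.

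Of 45 lysosomal genes 5 rose in model against control, among them Ctss (1.5, adjusted p 0.021) and Laptm5 (1.34, 0.0043). The median was 0.35, close to the 0.34 of all genes, and with scaling 0 of the 45 were called there. Without scaling the count was 3 without control 1, 3 without control 3 and 2 without model 2. Ctss lost the call without control 1, control 3, model 2 or model 3. For silibinin against control 1 of the 45 rose, Gm2a (1.23, adjusted p 0.0067), with 2 without control 2 or silibinin 3. In phloridzin against control 3 rose, among them Laptm5 (1.15, adjusted p 0.031) and Gm2a (1.07, 0.0085), with 1 without control 2, phloridzin 1 or phloridzin 2 and 6 without phloridzin 3, and with 2 without control 1 or control 3. Laptm5 lost that call without control 1, 2 or 3 or phloridzin 1 or 2, and Gm2a without control 2 or phloridzin 2. With scaling 1 of the 45 rose in silibinin against control and 0 in phloridzin against control. Against model, limma called 0 with silibinin (11 at an unadjusted p under 0.05, 0 by voom) and 0 with phloridzin (9 and 0, and 1 without phloridzin 2).

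Atp6v0d2 belongs to a proton pump with many subunits. Of 18 other subunits tested, limma called 0 in model against control (7 at an unadjusted p under 0.05, 0 by voom), 0 in silibinin against model (7 and 0) and 0 in phloridzin against model (4 and 0, and 1 without phloridzin 1). It also called 0 in silibinin against control (3 at an unadjusted p under 0.05, 0 by voom) and 0 in phloridzin against control (2 and 0). Their median was -0.35 in silibinin against model and -0.29 in phloridzin against model, against -0.15 and -0.11 over all genes. Atp6v0d1, the widely expressed paralogue of Atp6v0d2 and chosen after its values were seen, stood at 35.8, 37.5 and 30.2 FPKM in control and 45.2, 52.6 and 52.7 in model, 32.7, 38.2 and 37.7 with silibinin and 36.9, 35.7 and 34.9 with phloridzin. All 6 livers with a drug lay below all model livers for Atp6v0d1, with changes of -0.46 and -0.47 (adjusted p 0.03 each) that are under the fold change cutoff.

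Of 24 tested relatives of the 10 genes, 5 rose in model against control, among them Ctss, Cd53 (1.44, adjusted p 0.0045) and Lgals1 (1.34, 0.039), with 3 without control 1, 2 or 3 or model 2 or 3. Lgals1 lost the call without control 1, 2 or 3 or model 2 or 3. Limma called 0 in silibinin against control (6 at an unadjusted p under 0.05, 1 by voom, and 1 without silibinin 3). With phloridzin against control 3 rose, Lgals1 (1.66, adjusted p 0.048), Cd53 (1.32, 0.026) and Fabp4 (1.17, 0.0067), with 1 without control 1, 2 or 3 or phloridzin 1 or 2 and 5 without phloridzin 3. In the former 5 cases Lgals1 and Cd53 lost the call and Fabp4 kept it. With scaling 1 of the 24 rose in model against control and 1 in phloridzin against control. Against model, limma called 0 with silibinin (7 at an unadjusted p under 0.05, 1 by voom, and 1 without silibinin 1) and 0 with phloridzin (3 and 1).

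Monocytes and the macrophages that come from them were followed by 14 genes, whose summed level was 45.7, 82.9 and 80.9 FPKM in control, 250, 387 and 342 in model, 283, 353 and 234 with silibinin and 418, 383 and 195 with phloridzin. Lyz2 was the most abundant. In model against control 12 of the 14 rose, among them Cd14 (3.53, adjusted p 6.3e-06) and Lyz2 (2.16, 0.0016). Ccl2 is counted among the 12 but passed the filter on low values only through its model livers, so its values are a description. It stood at 0 in each control liver, at 3.56, 5.45 and 1.78 FPKM in model, at 0, 0 and 2.49 with silibinin and at 0, 0.258 and 0 with phloridzin. Between silibinin and control 6 rose, among them Lyz2 (2.22, adjusted p 0.011), Ms4a7 (1.61, 0.016) and Ccr2 (1.31, 0.0045), with 3 without control 1, 3 without control 2, 4 without control 3, 4 without silibinin 1 and 2 without silibinin 2. Lyz2 lost that call without silibinin 2, and Ms4a7 without control 1, 2 or 3 or silibinin 1 or 2. For phloridzin against control 8 rose, among them Lyz2 (2.28, adjusted p 0.0077), Ms4a7 (2.09, 0.0059) and Plac8 (1.74, 0.018), with 4 without control 1 and 5 without phloridzin 1, and Plac8 lost the call without control 1 or 3. With scaling 10 of the 14 rose in model, 5 in silibinin and 6 in phloridzin, each against control.

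In this list some genes fell with a drug. Cd14, a receptor for bacterial lipopolysaccharide, stood at 1.35, 1.11 and 1.89 FPKM in control and 19.6, 33.6 and 29.9 in model. It stood at 3.28, 3.91 and 2.66 FPKM with silibinin and 2.64, 3.66 and 2.29 with phloridzin, so that all livers with a drug lay below all model livers and above all control livers. In silibinin against model Cd14 fell (-2.72, adjusted p 5.4e-05) and was called without any 1 liver. Of the 14 genes 2 were past the thresholds, Cd14 and Ccl2, and 1 without model 1, model 2 or silibinin 1. Ccl2 was also not past them without silibinin 2. In phloridzin against model Cd14 (-2.87, adjusted p 3.8e-05) and F13a1 (-1.0, 0.012) fell, and Ccl2 was past the thresholds too. Of these 3 genes 1 was left without model 2. F13a1 lost the call without model 2 or phloridzin 1, and Ccl2 was not past the thresholds without model 2 or phloridzin 3. With scaling 1 fell in silibinin against model and 2 in phloridzin against model.

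The 16 markers of Kupffer cells, the resident macrophages, summed to 224, 336 and 274 FPKM in control, 340, 550 and 452 in model, 341, 501 and 454 with silibinin and 637, 688 and 380 with phloridzin, with Cd5l the most abundant. Limma called 0 of the 16 in model against control, with 9 at an unadjusted p under 0.05 and 3 by voom, and with 2 without control 2, 2 without control 3 and 5 without model 1. Between phloridzin and control 6 rose, among them Marco (3.27, adjusted p 0.037), Spic (1.37, 0.03) and Cd5l (1.09, 0.037). That count was 0 without control 1, 1 without control 2, 0 without control 3, 0 without phloridzin 1, 0 without phloridzin 2 and 7 without phloridzin 3, and with scaling 0 of the 16 rose. In silibinin against control limma called 0, with 7 at an unadjusted p under 0.05 and 0 by voom, and with scaling 1 fell. Against model it called 0 with silibinin (0 and 0) and 0 with phloridzin (1 and 0).

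Stellate cells and myofibroblasts were followed by 13 genes, which summed to 94.8, 84.1 and 97.4 FPKM in control, 271, 268 and 311 in model, 271, 317 and 150 with silibinin and 366, 226 and 195 with phloridzin, with Dcn the most abundant. In model against control 8 of the 13 rose, among them Col1a1 (4.35, adjusted p 0.00042), Col3a1 (3.75, 0.00039) and Lum (2.54, 0.0006). With silibinin against control 4 rose, among them Col1a1 (3.9, adjusted p 0.0067), Col3a1 (3.48, 0.0062) and Lum (2.22, 0.0095), and in phloridzin against control 4 rose, among them Col1a1 (3.79, 0.0062), Col3a1 (3.23, 0.0062) and Lum (2.72, 0.0045). Limma called 0 in silibinin against model (2 at an unadjusted p under 0.05, 0 by voom) and 0 in phloridzin against model (3 and 0). With scaling 7 of the 13 rose in model, 3 in silibinin and 3 in phloridzin, each against control. Silibinin 3 was the lowest and phloridzin 1 the highest of their groups in this sum too, and the part of these cells in the levels of the 10 genes was not tested.

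Gpnmb, Ctsk and Atp6v0d2 are also genes of osteoclasts. Of 8 osteoclast markers 5 were tested, and the 8 summed to 27, 15.0 and 18.3 FPKM in control, 28.9, 31.0 and 29.9 in model, 24.6, 36.6 and 14.7 with silibinin and 34.6, 37.5 and 30.8 with phloridzin, with Acp5 the most abundant. The defining markers Dcstamp (0.103 FPKM at most), Calcr (0.00796) and Oscar (0.0642) were near 0, and Ocstamp was at 0.212 to 0.798 FPKM. Ctsk rose in model (1.71, adjusted p 0.00023), silibinin (1.26, 0.0085) and phloridzin (1.36, 0.0059), each against control. Against model, limma called 0 with silibinin (2 at an unadjusted p under 0.05, 0 by voom) and 0 with phloridzin (0 and 0).

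Bile duct cells, which make Spp1, were followed by 10 markers, 6 of them tested, which summed to 8.06, 7.97 and 8.94 FPKM in control, 47.5, 48.0 and 52.3 in model, 21.9, 22.5 and 12.9 with silibinin and 31.6, 18.7 and 20 with phloridzin. The most abundant was Anxa2. Of the defining markers Krt7 (0.572 FPKM at most), Epcam (0.625) and Cftr (0.123) were near 0 and not tested. Each was nonetheless higher in every liver with CCl4 than in the control livers (0.256, 0.168 and 0.023 FPKM at most, in the same order). Krt19 and Sox9, given here after their values were seen, were more abundant. Krt19 had means of 0.588, 1.66, 1.71 and 2.81 FPKM in control, model, silibinin and phloridzin, and Sox9 of 1.42, 2.46, 2.48 and 2.47 FPKM. Anxa2, which other cells express as well, was the 1 of the 6 that rose in model against control (3.35, adjusted p 0.00095) and the 1 that fell in silibinin against model (-2.28, adjusted p 0.014). The fall was not called with protein-coding transcripts alone or with the most abundant transcript alone. Its livers were at 3.29, 2.49 and 3.22 FPKM in control, 38.6, 37.8 and 42.5 in model, 11.7, 13.4 and 2.19 with silibinin and 21.5, 9.56 and 8.12 with phloridzin. Limma called 0 in phloridzin against model (2 at an unadjusted p under 0.05, 1 by voom, and 1 without phloridzin 1) and 0 in silibinin against control (1 and 1, and 1 without silibinin 3). Krt19 rose in phloridzin against control (1.22, adjusted p 0.009). The part of bile duct cells in the level of Spp1 was not tested.

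Neutrophils were followed by 7 markers, 4 of them tested, which summed to 22.2, 8.46 and 23.9 FPKM in control, 29.7, 75.1 and 47.2 in model, 19.2, 28.3 and 11.2 with silibinin and 24.3, 84.5 and 41.0 with phloridzin. S100a8 was the most abundant, and Ly6g reached 0.285 FPKM and Mpo 1.01 FPKM. Retnlg rose in model against control (1.2, adjusted p 0.035), with 0 called without control 2, model 2 or model 3 and 2 without control 1 or model 1, and Retnlg itself also lost the call without control 3. Retnlg fell in silibinin against model (-1.36, adjusted p 0.041), with 0 called without model 2, model 3, silibinin 1 or silibinin 3. With scaling 0 of the 4 were called in either comparison. Limma called 0 of the 4 in phloridzin against model (0 at an unadjusted p under 0.05, 0 by voom), 0 in silibinin against control (1 and 0) and 0 in phloridzin against control (2 and 1).

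Of 5 adipocyte markers, which cover lipid storage, Adipoq was not in the table and only Cidec was tested, while Plin1 (0.0278 FPKM at most), Lep (0.0111) and Retn (0.0584) were near 0. The list summed to 0.361, 0.755 and 0.594 FPKM in control, 2.32, 3.61 and 5.12 in model, 0.565, 0.597 and 0.164 with silibinin and 1.17, 0.19 and 0.61 with phloridzin. Cidec rose in model against control (1.56, adjusted p 0.0016) and fell in silibinin against model (-1.67, 0.0026) and phloridzin against model (-1.5, 0.0049). Limma called it in neither drug against control, with 0 at an unadjusted p under 0.05 and 0 by voom in each.

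The 8 endothelial markers, with Clec4g the most abundant, summed to 80.1, 78.4 and 89.8 FPKM in control, 86.8, 116 and 98.0 in model, 62.9, 109 and 46.1 with silibinin and 118, 112 and 81.9 with phloridzin. Limma called 0 in model against control (1 at an unadjusted p under 0.05, 0 by voom), 0 in silibinin against model (0 and 0, and 1 without silibinin 2), 0 in phloridzin against model (0 and 0), 0 in silibinin against control (0 and 0) and 0 in phloridzin against control (1 and 0). The 12 markers of lymphocytes and dendritic cells, 5 of them tested and Nkg7 the most abundant, summed to 2.09, 3.7 and 2.71 FPKM in control, 6.12, 8.09 and 8.02 in model, 4.93, 7.4 and 6.12 with silibinin and 11.5, 6.54 and 5.89 with phloridzin. Cd8a reached 1.58 FPKM and Xcr1 0.158 FPKM. Limma called 0 of the 5 in model against control (3 at an unadjusted p under 0.05, 2 by voom), 0 in silibinin against model (0 and 0), 0 in phloridzin against model (0 and 0), 0 in silibinin against control (2 and 0) and 0 in phloridzin against control (2 and 1, and 1 without phloridzin 3). The part of these cells in the result was not tested.

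**Figure D5:**
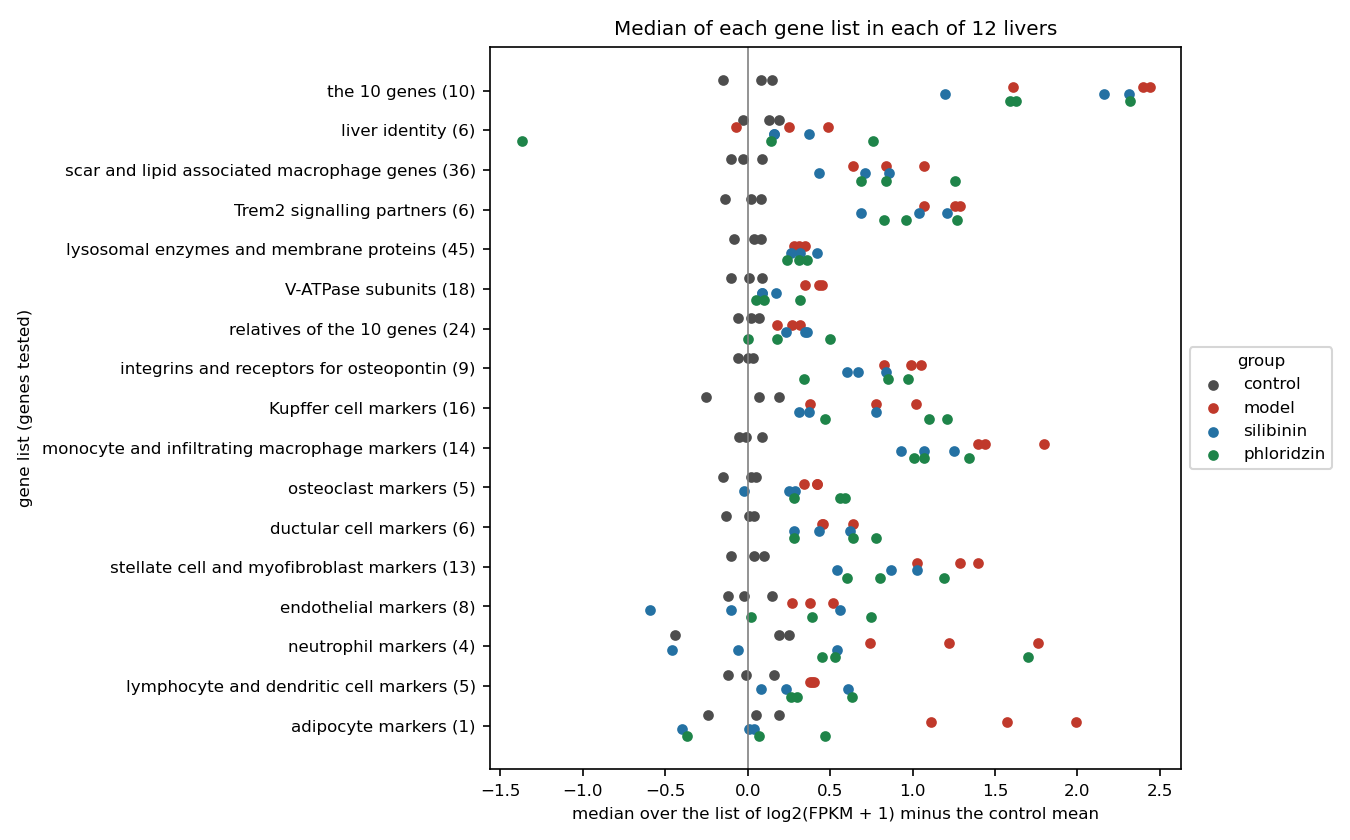
Median of each gene list in log2(FPKM + 1) minus the control mean on the horizontal axis, with 1 point for each of 12 livers and lists on the vertical axis. The 10 genes are at 1.2 in silibinin 3 and at 2.44 in model 3.

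Of all 197 tested genes in the 16 lists beside the 10 genes, 51 rose and 1 fell in model against control. In silibinin against model 5 fell and in phloridzin against model 4 fell, with none rising. For silibinin against control 22 rose, and in phloridzin against control 39 rose and 1 fell. These counts are without scaling, which lowered the number that rose against control in several lists, as given above. Limma called 0 in phloridzin against silibinin, with 10 at an unadjusted p under 0.05 and 0 by voom. The 5 and 4 that fell with a drug are 2.54% and 2.03% of the 197, below the 3.25% and 2.92% of all genes. Both counts, and the 51 that rose in model against control, include Ccl2, which passed the filter only through its model livers. The shares are thus a description, and nothing is read from their difference.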

How the data were processed

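The authors deposited FPKM values for each transcript and liver, and the unit was learned from the values. The submitters' processing notes name bcl2fastq, FastQC 0.11.5, HISAT2 2.1.0, StringTie 1.3.3b, DESeq 1.28.0 and mm10. FPKM was summed over the transcripts of each gene symbol and log2 taken after adding a pseudocount of 1. The filter kept the 13158 genes whose mean over the livers was 0.5 FPKM or more. The values are FPKM, so the primary test was not a count test, and voom on fragment numbers recovered from them was an alternative. Limma with a trend in the variance fitted 12 livers together with 6 comparisons, two-sided, adjusted by the Benjamini-Hochberg method over all tested genes. Calls needed an adjusted p under 0.05 and an absolute log2 fold change over 1. The fit was also run on simulated data with planted changes.

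The 10 genes and the 16 lists beside them were chosen with earlier results of these data known. The lists hold 229 genes, written by hand, of which 226 had values and 197 passed the filter. From each list and comparison, the called genes with the largest change were named, up to 3 per direction. Genes singled out otherwise should be read as chosen after their values were seen, also where the text does not mark them. These include Ttr, Tat, Apoa1, Ly6g, Mpo, Cd8a, Xcr1 and the markers given for their low levels.

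Alternatives were a pseudocount of 0.1, no filter, a mean FPKM of at least 1, median-ratio scaling, only the 2 compared groups, the replicate number as a block, protein-coding transcripts alone, the most abundant transcript alone, voom on recovered fragments, no fold change cutoff and each liver left out. No column of values lacked a sample. Promoters came from a set drawn from the RefSeq annotation of GRCm38.p6, and that set matched 7 of the 10 genes. Another 18991 transcripts were listed with neither symbol nor position, with 25.5% to 29.8% of summed FPKM in the control livers and 19.4% to 21.3% in the others. Whether they hold fragments of the 10 genes was not tested. The software was R 4.3.3, limma 3.58.1, data.table (version 1.17.8), Python 3.11.15, numpy 2.4.6, pandas 2.3.3 and matplotlib 3.10.9.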

Additional observations from a re-analysis of the deposited data

How the results depend on the processing

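Counts of all called genes depended on settings. In model against control 1382 genes were called, and 2596 with a pseudocount of 0.1, 2536 with voom and 4594 without a fold change cutoff. In silibinin against model 526 were called, and 796 with voom and 1849 without the cutoff. In phloridzin against model 463 were called, and 702 with a pseudocount of 0.1 and 1691 without the cutoff. In phloridzin against silibinin 3 were called, and 0 with only the 2 compared groups, 5 with the most abundant transcript and 1 to 6 with a liver left out. Between silibinin and control 261 were called, and 828 with a pseudocount of 0.1, 117 with the most abundant transcript, 686 with voom, 661 without the cutoff and 101 to 381 with a liver left out. In phloridzin against control 398 were called, and 1103 with a pseudocount of 0.1, 249 with scaling, 143 with only the 2 compared groups, 190 with the most abundant transcript, 938 with voom, 1051 without the cutoff and 214 to 635 with a liver left out.

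Model against control chose the 10 genes, so the number past the thresholds there describes the choice and is no test. It was 6 with scaling and 6 with the most abundant transcript alone. The comparisons of a drug with control share the control livers with that choice. In silibinin against control 7 were called, and 4 without a filter, 3 with the most abundant transcript and 3 to 9 with a liver left out. With phloridzin against control 7 were called, and 4 with scaling, 3 with only the 2 compared groups, 3 with the most abundant transcript and 3 to 6 with a liver left out. In phloridzin against model 0 were called, and 0 to 1 with a liver left out.

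The direction turned for some log2 fold changes, none of them called. In silibinin against model, leaving out a liver moved Gpnmb from -0.76 to 0.34, Lpl from -0.32 to 0.96, Fabp5 from -0.45 to 0.16 and Atp6v0d2 from -0.01 to 0.26, and scaling put Fabp5 at 0.02. In phloridzin against model Lpl ran from -0.89 to 0.39 with a liver left out and was at 0.06 with scaling, 0.79 with protein-coding transcripts, 0.79 with the most abundant transcript and 0.10 with voom. In phloridzin against silibinin, with a liver left out, Gpnmb ran from -0.82 to 0.29, Trem2 from -0.24 to 0.45, Cd9 from -0.19 to 0.16, Cd63 from -0.63 to 0.10, Fabp5 from -0.40 to 0.23, Ctsd from -0.26 to 0.11 and Lgals3 from -1.45 to 0.37. Spp1 was at 0.05 there with the most abundant transcript. The cause was not tested.

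Calls of the named genes were lost in some settings. With the most abundant transcript alone these were Cyp2e1, Ctss, Lgals1, Itga4 and Retnlg in model against control, Anxa2 and Retnlg in silibinin against model, F13a1 in phloridzin against model, Clec7a, Capg, Syk, Itga4 and Ms4a7 in silibinin against control, and Cyp2e1, Capg, Laptm5, Lgals1, Cd53, Itga4, Marco, Spic and Cd5l in phloridzin against control. With only the 2 compared groups they were Retnlg in silibinin against model, F13a1 in phloridzin against model, and Mmp12, Tyrobp, Syk, Laptm5, Gm2a, Lgals1, Cd53, Itga4, Cd44, Spic, Cd5l, Lyz2, Plac8 and Krt19 in phloridzin against control. With scaling they were Inpp5d, Ctss, Laptm5, Lgals1 and Retnlg in model against control, Retnlg in silibinin against model, F13a1 in phloridzin against model, Syk and Cd44 in silibinin against control, and Syk, Laptm5, Gm2a, Lgals1, Fabp4, Itga4, Cd44, Marco, Spic and Cd5l in phloridzin against control. With voom they were Lgals1 and Itga4 in model against control, Itga4 in silibinin against control, and Lgals1, Itga4 and Marco in phloridzin against control. With protein-coding transcripts alone they were Itga4 in model against control, Anxa2 and Retnlg in silibinin against model, and F13a1 in phloridzin against model. Clec7a and Itga4 in silibinin against control and Lgals1 and Itga4 in phloridzin against control were lost there too. Lgals1 and Retnlg were among those lost without a filter and with the replicate block. The lists leave out Ccl2, a description, which lost the call in silibinin against model with scaling and other settings.

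Livers with the same replicate number were not more alike, with a median correlation of 0.0039 over 18 pairs against -0.0059 over 36 other pairs. With the replicate block 1363 genes were called in model against control, 508 in silibinin against model, 449 in phloridzin against model, 3 in phloridzin against silibinin, 237 in silibinin against control and 347 in phloridzin against control. Of the 10 genes the replicate block left 6 called in silibinin against control, 5 in phloridzin against control and 0 in the comparisons of a drug with model or with the other drug.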
